A study of Mus musculus with 18 samples.

Results

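Vascular calcification regulators are the genes whose products drive or restrain the deposition of mineral in the arterial wall. Among these, 10 genes were followed across the aortas of progeroid, young and aged mice: Spp1, Ibsp, Mgp, Tnfrsf11b, Enpp1, Alpl, Slc20a1, Slc20a2, Sost and Runx2. They were taken by symbol from the 54281 genes of the count table, and all 10 were found and all 10 had enough counts to be tested. The set was chosen by symbol with an earlier result in view, namely the higher CPM of Spp1 and Tnfrsf11b in progeroid than in young mice, so the comparisons with progeroid mice describe these 10 genes by their values and fold changes and print no p-value, and any count there of genes past a cut-off is a description. Adjusted p-values over all genes are given between aged and young WT mice, a contrast the choice did not use. Its young mice are the same libraries as in the contrast that was used, so the p-values of Spp1 and Tnfrsf11b are not independent of the choice.

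The study sequenced RNA from the descending aorta of male C57BL/6 mice, with the intima, media and adventitia kept together. The HGPS mice (genotype LMNAG609G, a knock-in that produces progerin, a truncated form of lamin A, from the mouse's own Lmna gene in every cell type that uses it) were 64 to 75 d old. The 2-mo WT mice were 62 d old apart from replicate 6, at 95 d, and the ages of the 24-mo WT mice lay between 609 and 762 d. Each group held 6 mice with 1 library a mouse, and the labels name no Cre, transgene or treatment. The aged WT mice were bought and the HGPS line was donated to the authors, so between these groups genotype, age and colony cannot be told apart. Library totals ran from 12413229 to 30844775 counts, and the HGPS libraries were the deepest as a group (median 22752394 against 18031579 in 2-mo WT). Lmna itself was at 577 ± 82.3 CPM (counts scaled by library size) in HGPS, 416 ± 60.7 in 2-mo WT and 418 ± 73.2 in 24-mo WT (SD, n = 6 each), but a count per gene cannot separate the progerin transcript from that of lamin A, so it does not check the genotype. Markers of smooth muscle were abundant in every mouse, with 8 of 8 detected, as the labelled tissue requires. Whole wall was sampled, so fewer cells of a type and less RNA per cell cannot be told apart.

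Mineral forms in an artery when phosphate and calcium outrun the inhibitors that the wall and the blood supply. Pyrophosphate blocks crystal growth, ENPP1 makes it outside the cell, and tissue-nonspecific alkaline phosphatase (ALPL) breaks it down to phosphate. Matrix Gla protein and osteopontin restrain mineral in soft tissue, while RUNX2 and the mineralized-matrix proteins belong to the bone programme that smooth muscle cells can adopt when they calcify.

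Spp1 and Ibsp come first. They encode osteopontin and bone sialoprotein, secreted acidic phosphoproteins that bind integrins and calcium, and both sit in the SIBLING gene cluster on chromosome 5 (GRCm38), Ibsp at 104299171 to 104311469 and Spp1 at 104435118 to 104441050, both on the plus strand. In HGPS Spp1 but not Ibsp lay wholly above 2-mo WT, and at 24 mo both did. The sequences in front of these genes are shown because of this and because they are neighbours of one family. Each is the 250 bases upstream of a RefSeq start (GRCm38.p6, plus strand), at chr5:104434861-104435110 for Spp1 and chr5:104299037-104299286 for Ibsp, with matches to any of 4 short motifs in capitals.
Spp1: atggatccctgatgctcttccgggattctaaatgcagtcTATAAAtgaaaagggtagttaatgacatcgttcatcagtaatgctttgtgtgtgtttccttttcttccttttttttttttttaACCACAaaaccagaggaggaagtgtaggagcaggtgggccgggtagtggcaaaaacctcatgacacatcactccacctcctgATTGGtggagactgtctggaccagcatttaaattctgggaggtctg
Ibsp: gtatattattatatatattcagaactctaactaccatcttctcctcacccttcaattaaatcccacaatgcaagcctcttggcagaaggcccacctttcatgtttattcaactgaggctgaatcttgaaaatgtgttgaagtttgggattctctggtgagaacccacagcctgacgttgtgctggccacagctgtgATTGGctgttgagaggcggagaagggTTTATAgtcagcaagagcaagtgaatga
Motifs were searched on both strands in the 250 bases of 32817 RefSeq promoters. The letters were TATAAA for the TATA box (found in 12.4% of all promoters), CCAAT for the CCAAT box (33.8%), TGTGGT for a Runx site (14%) and TGANTCA for an AP-1 site (6.75%), and no capitals overlap. Both promoters held a CCAAT box on the minus strand, read in the sequence as ATTGG, which began 46 bases before the start in Spp1 and 54 before it in Ibsp. The Ibsp promoter had its TATA box on the minus strand, read as TTTATA, 28 bases before the start, and an inverted TATA box is a known feature of the bone sialoprotein gene. In Spp1 a TATAAA match lay 211 bases before the start and a Runx site, read as ACCACA, lay 128 bases before it. Neither had an AP-1 match in this window. Spp1 had a second RefSeq promoter, at chr5:104435942-104436191, which is not shown and held no match to any of these motifs. Of the 10 genes, 7 had a promoter entry (all but Tnfrsf11b, Mgp and Slc20a2). Runx-site matches were also present in the first promoters of Enpp1, Runx2 and Slc20a1. A match is a run of letters and says nothing of a factor's binding.

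In HGPS aortas Spp1 ranged from 14.8 to 43.8 CPM with a median of 25.2. Its range in 2-mo WT was 0.489 to 1.36 CPM (median 0.675), and in 24-mo WT it was 2.34 to 7.88 CPM (median 4.68). The 3 groups were fully separated, with every HGPS mouse above every 24-mo WT mouse and every 24-mo WT mouse above every 2-mo WT mouse. HGPS was higher than 2-mo WT by 5.12 on the log2 scale (SE 0.37), or 34.7-fold, and higher than 24-mo WT by 2.42 (SE 0.30). The young libraries rested on 7 to 23 Spp1 counts each, so the size of the first fold depends on few reads. Spp1 rose 6.47-fold between 2 and 24 mo in WT mice (log2 fold change 2.69, SE 0.39, adjusted p = 9.49e-05 by edgeR's quasi-likelihood test). This passes the cut-offs used throughout, which ask that a gene differ by 1.5-fold or more with its adjusted p below 0.001. In 26 alternative settings the log2 fold change was 2.50 to 2.94 and past the cut-offs each time. Relative spread was wide in each group, with a coefficient of variation of 42% in HGPS, 41% in 2-mo WT and 45.9% in 24-mo WT. Replicate 3 was the highest HGPS mouse (43.8 CPM), and it was also the highest HGPS mouse for Tnfrsf11b, Mgp, Slc20a1, Sost, Enpp1 and Ibsp.

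Bone sialoprotein followed another pattern. Ibsp was at 0.280 to 1.11 CPM in HGPS (median 0.944), at 0.210 to 0.711 CPM in 2-mo WT (median 0.514) and at 7.58 to 16.6 CPM in 24-mo WT (median 9.58). All 24-mo WT mice lay above all other mice, and the HGPS and 2-mo WT ranges overlapped. Ibsp rose 21.5-fold between 2 and 24 mo in WT (log2 fold change 4.43, SE 0.30, edgeR adjusted p = 1.3e-08), from libraries of 3 to 12 counts to libraries of 133 to 326. In HGPS it was 12.9-fold lower than in 24-mo WT (log2 fold change -3.68, SE 0.28), while its difference from 2-mo WT was 0.74 (SE 0.33) on few counts. Within a mouse, the ratio of Spp1 to Ibsp per kilobase of exon was 17.9 to 119 in HGPS, 1.37 to 2.93 in 2-mo WT and 0.359 to 0.903 in 24-mo WT. So osteopontin RNA exceeded bone sialoprotein RNA in every young mouse of either genotype, and the order was the reverse in all 6 aged mice. In 2-mo WT this order rested on 7 to 23 Spp1 and 3 to 12 Ibsp counts a mouse (12 against 11 in replicate 6). With so few counts it is not firm there.

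The other SIBLING genes of the cluster were close to silent in these aortas. Mepe had 0 counts in all 18 mice, Dspp had 4 and Dmp1 had 31 in total, and none of them was tested. Sparcl1, a SPARC-related matrix gene that neighbours the cluster and was singled out after its values were seen, rose at 24 mo from a mean of 405 to 815 CPM (log2 fold change 1.01, edgeR adjusted p = 4.08e-05) and stood at 355 CPM in HGPS. Fam20c, which encodes the kinase that phosphorylates SIBLING proteins, had mean levels of 29.9, 28.7 and 31.1 CPM in HGPS, 2-mo WT and 24-mo WT and passed the cut-offs in no comparison.

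**Figure D1:**
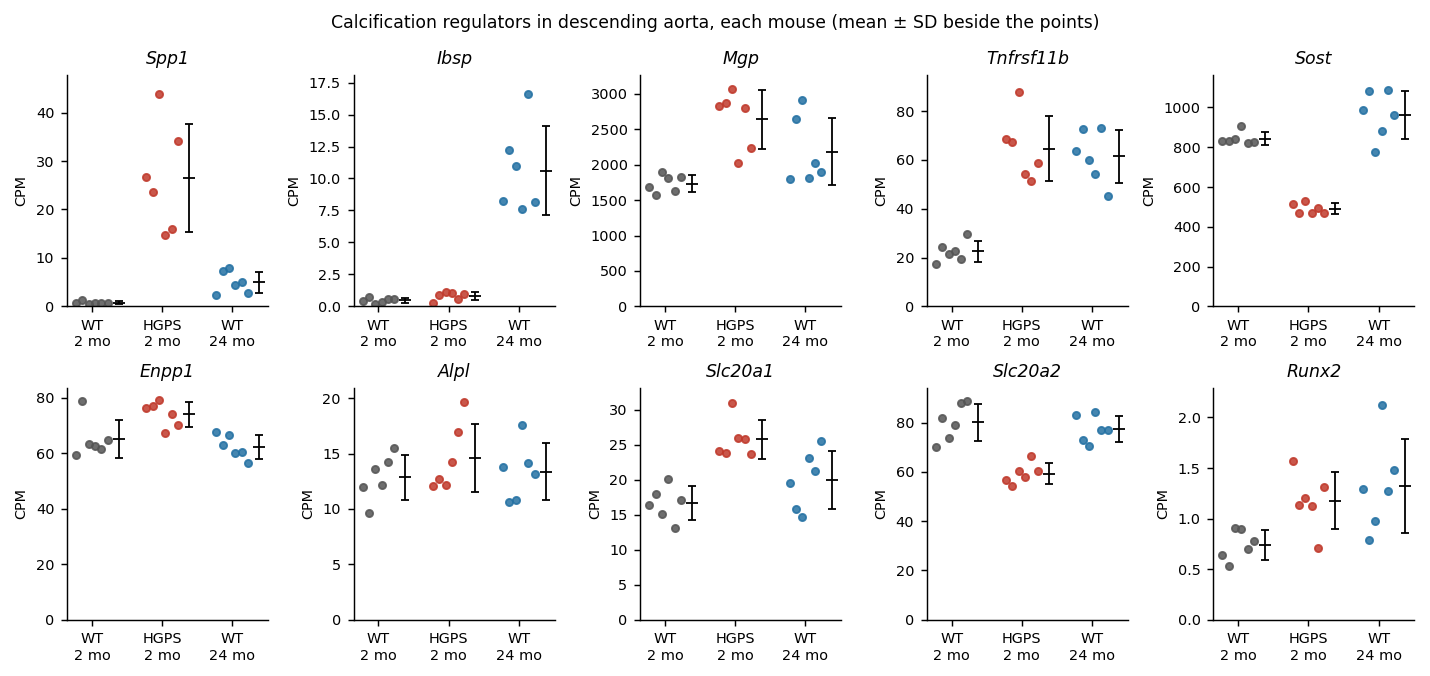
CPM of the 10 calcification regulators in each mouse, one panel a gene with its own axis from 0; points are mice (6 per group, in replicate order) and the bar beside them is the mean ± SD. Spp1 separates the 3 groups (lowest HGPS mouse 14.8, highest 24-mo WT mouse 7.88, highest 2-mo WT mouse 1.36 CPM), Ibsp stands high in 24-mo WT alone, and Sost stands low in HGPS alone.

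The most abundant of the 10 genes was an inhibitor of mineral. Mgp, at position 136872435 to 136875823 of chromosome 6, encodes matrix Gla protein, a vitamin K-dependent inhibitor made by smooth muscle. Its CPM lay between 2029 and 3072 in HGPS (median 2812), between 1573 and 1891 in 2-mo WT (median 1747) and between 1804 and 2915 in 24-mo WT (median 1960). Every HGPS mouse was above every 2-mo WT mouse, with a log2 difference of 0.61 (SE 0.12), or 1.52-fold. This lies on the edge of the 1.5-fold limit, and with 1 mouse left out Mgp was counted past the cut-offs or not depending on the mouse: it was not without HGPS replicate 1, 2, 3 or 5, without any one of the 2-mo WT mice, or without 24-mo WT replicate 5. Between 2 and 24 mo the log2 fold change was 0.33 (SE 0.12, edgeR adjusted p = 0.0885), the ranges overlapped and the cut-offs were not passed. The 24-mo WT mice with the most Mgp, replicates 2 and 3 at 2649 and 2915 CPM, were also those with the most Spp1, at 7.25 and 7.88 CPM.

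Tnfrsf11b encodes osteoprotegerin, a secreted decoy receptor that captures RANKL and TRAIL (chromosome 15, 54250619 to 54278484). Its level was 51.3 to 87.8 CPM in HGPS (median 63.1), 17.5 to 29.8 in 2-mo WT (median 22.2) and 45.2 to 73.0 in 24-mo WT (median 61.9). Both HGPS and 24-mo WT lay wholly above 2-mo WT, and they overlapped each other. The WT mice gained 1.44 on the log2 scale between 2 and 24 mo (SE 0.15, edgeR adjusted p = 1.66e-06), or 2.72-fold. This call held in all 27 alternatives that kept the same cut-offs. HGPS exceeded 2-mo WT by 1.52 (SE 0.15), and the difference between HGPS and 24-mo WT was 0.07 (SE 0.14). Among the young WT mice the highest value, 29.8 CPM, was that of the 95-d mouse.

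ENPP1 and ALPL set extracellular pyrophosphate in opposite directions, and neither gene (Enpp1 on chromosome 10 at 24637914 to 24712159, Alpl on chromosome 4 at 137741733 to 137796384) passed the cut-offs in any comparison. Enpp1 was at 67.2 to 79.2 CPM in HGPS (median 75.2), 59.3 to 78.8 in 2-mo WT (median 62.9) and 56.3 to 67.6 in 24-mo WT (median 61.6). The log2 difference of HGPS from 2-mo WT was 0.18 (SE 0.07) and that of 24-mo from 2-mo WT was -0.06 (SE 0.07, edgeR adjusted p = 0.626). Alpl was at 12.1 to 19.6 CPM in HGPS (median 13.5), 9.60 to 15.5 in 2-mo WT (median 12.9) and 10.6 to 17.6 in 24-mo WT (median 13.5), and all 3 ranges overlapped. Its log2 fold change was 0.19 (SE 0.14) in HGPS and 0.06 at 24 mo (SE 0.15, edgeR adjusted p = 0.854). The within-mouse ratio of Enpp1 to Alpl per kilobase had means of 2.07 ± 0.476, 2.06 ± 0.590 and 1.89 ± 0.415 in HGPS, 2-mo WT and 24-mo WT (SD, n = 6 each).

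The sodium-phosphate cotransporters PiT-1 (Slc20a1) and PiT-2 (Slc20a2), which carry phosphate into smooth muscle cells, stood apart from 2-mo WT in opposite directions in HGPS. Slc20a1 lies on chromosome 2 at 129198764 to 129211616 and Slc20a2 on chromosome 8 at 22476788 to 22569612. Slc20a1 was at 23.7 to 30.9 CPM in HGPS (median 25), 13.2 to 20.1 in 2-mo WT (median 16.7) and 14.7 to 25.5 in 24-mo WT (median 20.4). Slc20a2 was at 54.1 to 66.3 CPM in HGPS (median 59.1), 70.2 to 88.8 in 2-mo WT (median 80.5) and 70.4 to 84.2 in 24-mo WT (median 77.0). No HGPS mouse overlapped a 2-mo WT mouse in either gene. HGPS was higher than 2-mo WT by 0.63 in Slc20a1 (log2, SE 0.12) and lower in Slc20a2, at -0.44 (SE 0.07), which is under the 1.5-fold limit. At 1.55-fold, Slc20a1 was near that limit, and it was no longer counted past the cut-offs with the replicate number as a block, without HGPS replicate 1, 3 or 5 or without 2-mo WT replicate 1, 3, 5 or 6. In the WT comparison neither passed, with log2 fold changes of 0.27 for Slc20a1 (edgeR adjusted p = 0.191) and -0.05 for Slc20a2 (0.699). Within a mouse, the ratio of Slc20a1 to Slc20a2 per kilobase was 0.434 to 0.571 in HGPS, above the 0.167 to 0.284 of 2-mo WT and the 0.232 to 0.369 of 24-mo WT. PiT-2 RNA was thus the more abundant of the pair in all 18 mice, by a smaller margin in each HGPS mouse.

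Sost encodes sclerostin, a secreted Wnt antagonist best known from osteocytes, and it was the second most abundant of the 10 genes per exon length in these aortas (chromosome 11, 101962458 to 101967015). It was at 469 to 530 CPM in HGPS (median 483), 819 to 909 in 2-mo WT (median 831) and 774 to 1089 in 24-mo WT (median 974). Every HGPS mouse was below every WT mouse of either age. The HGPS level was 1.71-fold lower than in 2-mo WT (log2 fold change -0.78, SE 0.07) and 1.96-fold lower than in 24-mo WT (-0.97, SE 0.07). Sost varied less than any other of the 10 within HGPS and within 2-mo WT, with coefficients of variation of 5.40% and 3.93%, against 12.5% at 24 mo. Between the WT ages the log2 fold change was 0.19 (SE 0.07, edgeR adjusted p = 0.0986).

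Runx2, the master transcription factor of osteoblasts, was the least abundant per exon length (chromosome 17, 44495987 to 44814797). It was at 0.710 to 1.57 CPM in HGPS (median 1.17), 0.533 to 0.908 in 2-mo WT (median 0.735) and 0.789 to 2.13 in 24-mo WT (median 1.28). These values stand for 9 to 39 counts a mouse, and the ranges of all 3 groups overlapped. The log2 fold change was 0.67 (SE 0.25) in HGPS and 0.85 at 24 mo (SE 0.26, edgeR adjusted p = 0.0354), which did not pass the cut-off of 0.001.

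Counted over the 10 genes, 5 passed both cut-offs between HGPS and 2-mo WT: Spp1, Tnfrsf11b, Mgp and Slc20a1 were higher and Sost was lower. Of all 15210 genes tested 9.50% passed there (5.27% higher and 4.23% lower), and since this contrast drew attention to the genes, nothing is read from their count. The groups did not overlap in 6 of the 10, against 21.9% of all genes. Between 24-mo and 2-mo WT, 3 of 10 passed (Spp1, Tnfrsf11b and Ibsp), all higher and all without overlap (the first 2 are the genes the choice rested on), where 2.00% of all genes passed (1.28% higher, 0.717% lower) and 6.28% were without overlap. The median log2 fold change of the 10 was 0.30 in that comparison and 0.01 over all genes. Between HGPS and 24-mo WT, 3 passed, with Spp1 higher and Sost and Ibsp lower, and 4 did not overlap (those and Slc20a2), where the shares of all genes were 12.1% (6.02% higher, 6.11% lower) and 22.2%. The 3 comparisons share libraries, so their values are given side by side and not compared as independent results.

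**Figure D2:**
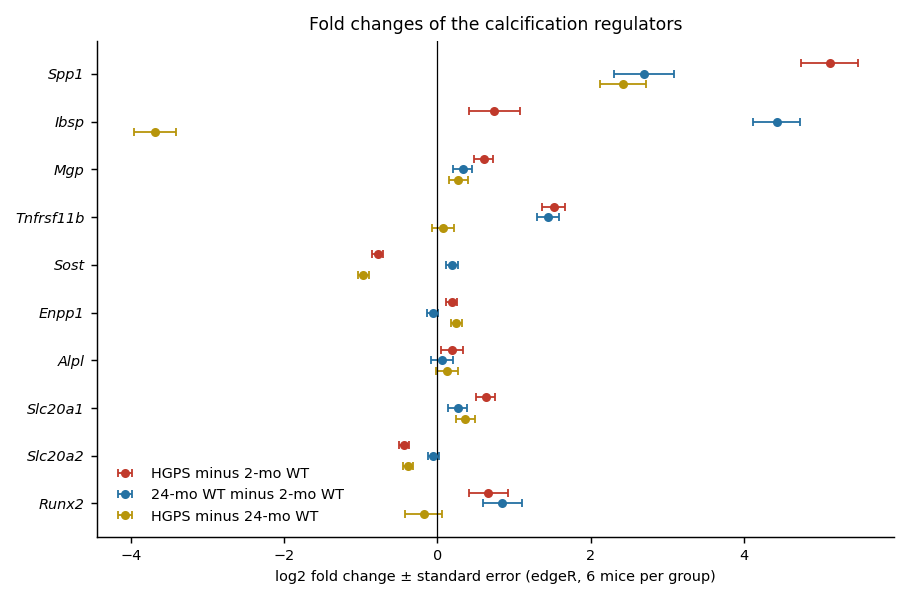
Log2 fold change ± standard error of the 10 genes from edgeR in the 3 comparisons, 6 mice a group, with a line at 0. Spp1 is at 5.12 in HGPS against 2-mo WT and 2.69 in 24-mo against 2-mo WT, Ibsp is at 4.43 in the WT comparison and -3.68 in HGPS against 24-mo WT, and Sost is below 0 in both HGPS comparisons.

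To rank the genes against each other, CPM was divided by the length of their exons in kilobases. On this scale Mgp led in every group, from a mean of 1461 in 2-mo WT to 2223 in HGPS, followed by Sost at 238 to 466, and no mouse's value of a lower gene reached that of Sost. Osteopontin moved from the eighth place of 2-mo WT (0.460 CPM per kb) to the fourth in HGPS (16.1), where its range overlapped those of Tnfrsf11b above it and Slc20a2 below it, and held the ninth in 24-mo WT (2.99). Ibsp was in the ninth place in both young groups and in the sixth in 24-mo WT (5.14). In 24-mo WT the genes from the fifth to the ninth place (Enpp1, Ibsp, Slc20a1, Alpl and Spp1) each overlapped the next in range. Osteoprotegerin held the fourth place in 2-mo WT (8.01, overlapping Enpp1) and the third in HGPS (22.9) and 24-mo WT (21.8). Runx2 was last throughout, overlapping Ibsp in HGPS and in 2-mo WT.

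**Figure D3:**
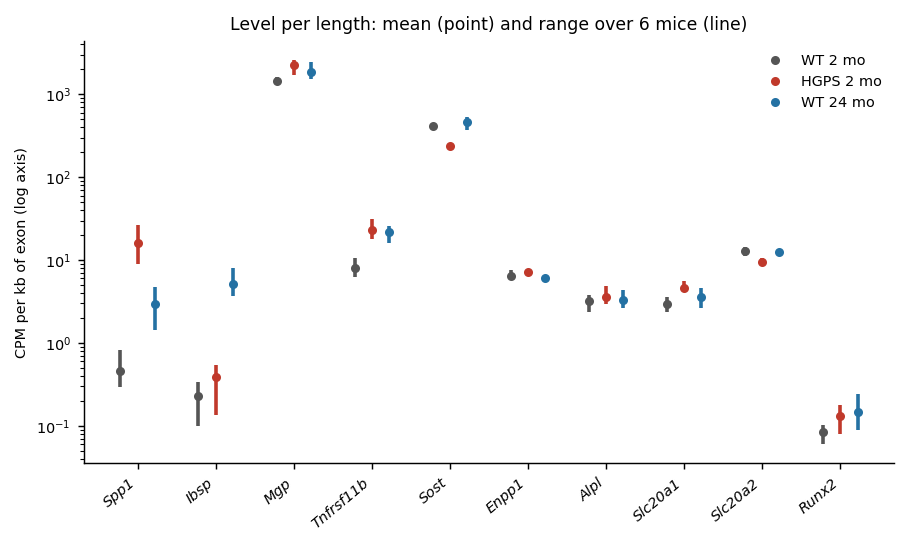
CPM per kilobase of exon of the 10 genes on a log axis; points are group means and lines run from the lowest to the highest of 6 mice. Mgp and Sost stand above the rest in all groups, and Spp1 and Ibsp change place between groups.

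The partners of these proteins were followed in 11 lists of 99 genes written from their known roles, of which 65 had enough counts to be tested. Between HGPS and 2-mo WT 18 of the 65 passed (27.7%, against 9.50% of all genes), 9 higher and 9 lower. In the WT comparison 5 passed (7.69% against 2.00%), 3 higher and 2 lower, and between HGPS and 24-mo WT 19 passed (29.2% against 12.1%), 10 higher and 9 lower. The median log2 fold change of the 65 was 0.06, 0.05 and 0.02 in the 3 comparisons, beside 0.00, 0.01 and -0.01 over all genes. All p-values that follow are from edgeR, adjusted over all genes. The lists were chosen with earlier results of these data known. Their shares and p-values are therefore descriptions and are not independent of that choice.

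Receptors of osteopontin changed in both directions in HGPS. Cd44, the hyaluronan receptor that also binds osteopontin, was at 108 to 128 CPM in HGPS and 64.2 to 82.2 in 2-mo WT, and rose with a log2 fold change of 0.65 (SE 0.08, adjusted p = 4.92e-06). The integrin subunits Itga8, Itga9 and Itgb3 fell by 0.93 (adjusted p = 3.53e-07), 0.86 (1.57e-06) and 0.68 (0.000308) on the log2 scale. Itga8 and Itga9 are abundant in smooth muscle, with means of 6761 and 1225 CPM in 2-mo WT and 3553 and 676 CPM in HGPS. Itgb3, the beta subunit of the vitronectin receptor, lost its call without HGPS replicate 3. None of the 9 receptors tested passed in the WT comparison by edgeR or by DESeq2, and 2 had an unadjusted p under 0.05. Against 24-mo WT, HGPS had more Cd44 (log2 fold change 0.68, adjusted p = 1.44e-06) and more of the leukocyte integrin subunit Itga4 (0.81, 0.00019), and less Itga8 (-0.67, 7.02e-06) and Itga9 (-0.68, 1e-05). Itga4 was not called when the 2 groups were fitted alone.

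Of the genes whose products cleave or cross-link osteopontin, Mmp3, a matrix metalloproteinase that cuts it, rose at 24 mo from 110 ± 17.9 to 213 ± 52.3 CPM (SD, n = 6 each; log2 fold change 0.95, SE 0.14, adjusted p = 0.000169), although the ranges overlapped and the call was lost when those 2 groups were fitted alone. In HGPS none of the 4 tested passed by edgeR against 2-mo WT (4 with an unadjusted p under 0.05, 1 called by DESeq2) or against 24-mo WT (3 and 2). RANKL itself (Tnfsf11) had too few counts to be tested. Its signalling receptor RANK (Tnfrsf11a) was lower in HGPS than in 24-mo WT (log2 fold change -0.82, SE 0.09, adjusted p = 6.75e-07), with means of 35.2 and 62.2 CPM, and stood at 52.1 CPM in 2-mo WT. The TRAIL death receptor Tnfrsf10b rose in HGPS from 11.5 ± 1.76 to 20.6 ± 0.952 CPM (SD, n = 6 each; 0.85, SE 0.10, adjusted p = 3.14e-06). TRAIL itself (Tnfsf10) passed in no comparison.

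Pyrophosphate and phosphate handling had 5 of 11 tested genes past the cut-offs in HGPS against 2-mo WT. Ppa1, a cytosolic pyrophosphatase, rose from a mean of 33.7 to 77.4 CPM (log2 fold change 1.20, SE 0.17, adjusted p = 2.04e-05). Phospho1, a phosphatase that releases phosphate inside matrix vesicles, rose from 6.91 to 16.2 CPM (1.22, SE 0.24, 0.000415), and its call was lost on leaving out any 1 of HGPS replicates 1, 2, 3 and 6 or of 2-mo WT replicates 2 to 6. Entpd1, an ectonucleotidase that degrades ATP, fell by 0.65 (adjusted p = 1.59e-05), Enpp3, a relative of ENPP1, fell by 0.87 (3.77e-05), and Phex, an endopeptidase tied to renal phosphate loss, fell by 0.74 (0.000153). Ank, which carries the release of ATP and pyrophosphate, had 160 ± 22 CPM in HGPS and 110 ± 4.68 in 2-mo WT (SD, n = 6 each), a log2 fold change of 0.54 that is under the 1.5-fold limit. None of the 11 passed in the WT comparison by edgeR (5 with an unadjusted p under 0.05, 1 called by DESeq2). The WT ages did not overlap in 2 of the 11, Entpd1 and Enpp3, against 6.28% of all genes. Both were lower at 24 mo, as in HGPS. Entpd1 was at 335 to 394 CPM in 24-mo WT and 399 to 509 in 2-mo WT. Enpp3 was at 12.5 to 24.1 CPM in 24-mo WT, 25.1 to 31.7 in 2-mo WT and 12.3 to 18.7 in HGPS. Against 24-mo WT, HGPS was higher in Ppa1 (1.42, 2.18e-06) and Phospho1 (1.40, 9.77e-05) and lower in Phex (-1.07, 1.99e-06).

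**Figure D4:**
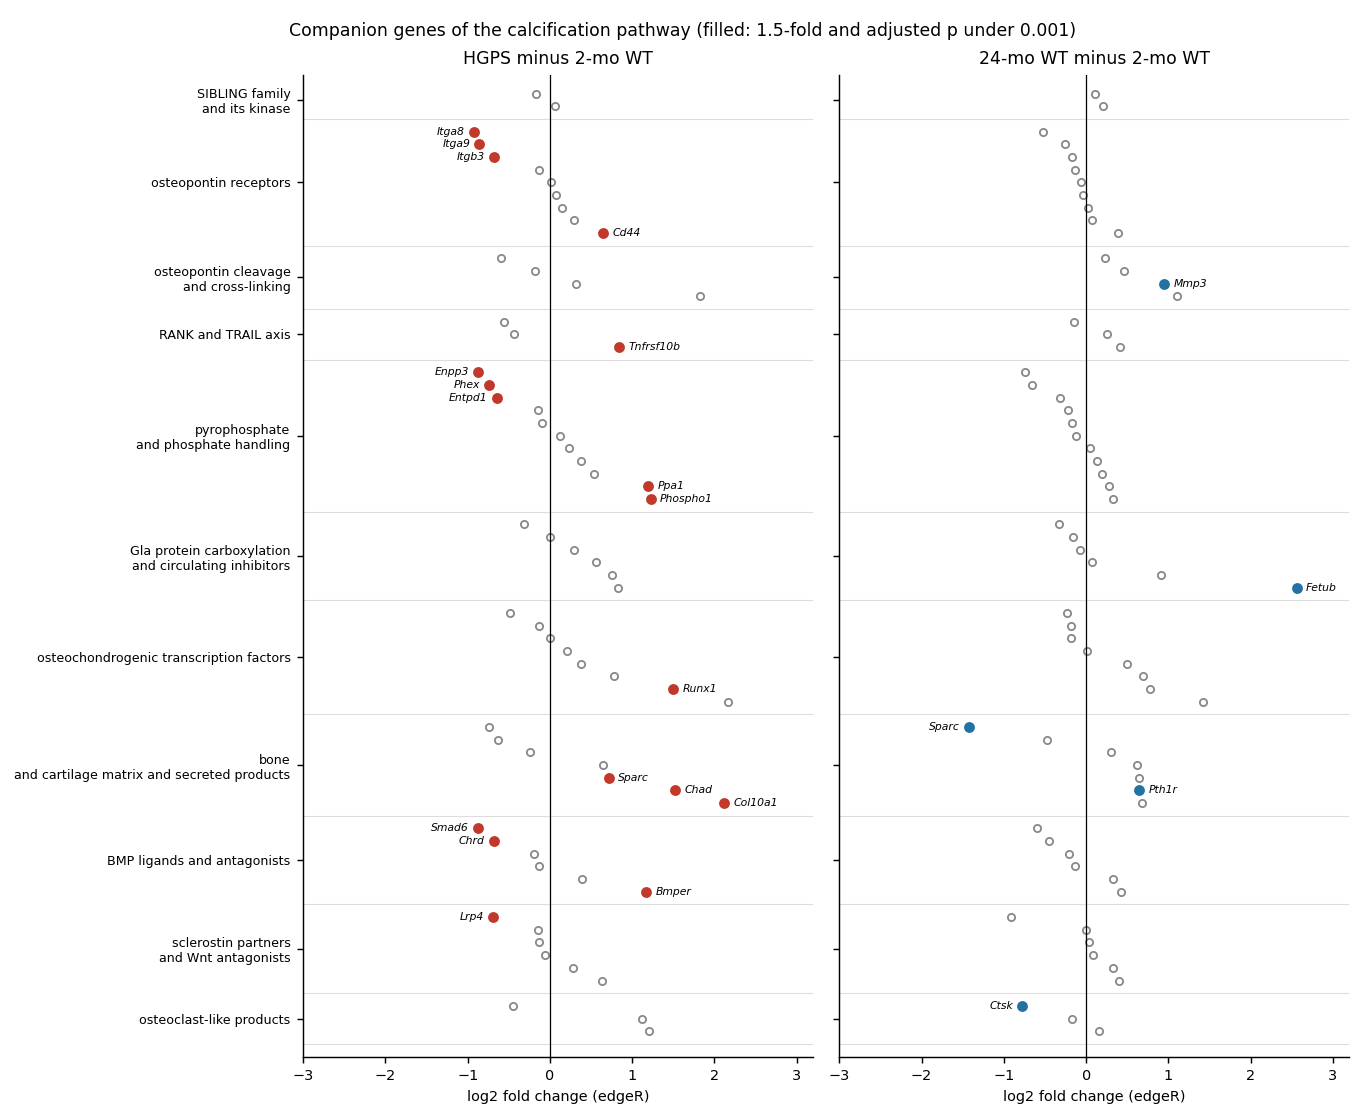
Log2 fold change (edgeR) of each tested gene of the 11 companion lists, one row a gene, in HGPS minus 2-mo WT (left) and 24-mo minus 2-mo WT (right); filled, named points passed 1.5-fold and an adjusted p under 0.001, and open points did not. In HGPS 18 of 65 passed and at 24 mo 5 of 65, with Sparc on opposite sides of 0.

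Of the genes for Gla carboxylation and the circulating inhibitors, none of 6 passed in HGPS against 2-mo WT by edgeR or by DESeq2, and 4 had an unadjusted p under 0.05. The 2 groups did not overlap in 4 of the 6, against 21.9% of all genes. At 24 mo Fetub, a relative of fetuin-A, rose from 0.334 ± 0.133 to 2.06 ± 1.31 CPM (SD, n = 6 each; log2 fold change 2.56, SE 0.42, adjusted p = 0.000353), on few counts, with its call lost with the replicate block, with those 2 groups fitted alone and on leaving out 24-mo WT replicate 3 or any 1 of 2-mo WT replicates 1 to 5. Against 24-mo WT, HGPS had more Gas6, a Gla protein that signals through Axl (0.64, SE 0.07, 1.44e-06), and less Fetub (-1.80, 0.000816), a call lost in 18 of 26 alternatives. Gas6 was at 715 to 872 CPM in HGPS, 457 to 609 in 2-mo WT and 464 to 569 in 24-mo WT. Every HGPS mouse thus lay above every WT mouse of either age in Gas6.

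Among the osteochondrogenic factors, 1 of 8 passed by edgeR in HGPS against 2-mo WT (4 with an unadjusted p under 0.05, 2 called by DESeq2, both higher). Runx1, a Runx factor of blood and early cartilage cells, rose from 4.68 ± 0.917 to 13.2 ± 4.70 CPM (SD, n = 6 each; log2 fold change 1.5, SE 0.22, adjusted p = 3.68e-05). Its relative Runx3 missed the edgeR cut-offs but was without overlap, at 0.630 to 1.91 CPM in HGPS and 0.0592 to 0.374 in 2-mo WT. These 2-mo WT values stand for 1 to 7 counts a mouse. The osteoblast factor Sp7 (osterix), Msx2, Dlx3 and Dlx5 had too few counts to be tested. Sox9, the cartilage factor, had a log2 fold change of 1.42 at 24 mo (SE 0.36, adjusted p = 0.0133), short of the cut-off. No factor passed by edgeR in the WT comparison (4 with an unadjusted p under 0.05, 0 called by DESeq2) or between HGPS and 24-mo WT (5 and 2).

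Bone and cartilage matrix genes had 3 of 7 past the cut-offs in HGPS, all higher. Sparc, which encodes the collagen-binding protein osteonectin, was at 7049 to 9110 CPM in HGPS, 3496 to 5750 in 2-mo WT and 1600 to 1906 in 24-mo WT, with no overlap between groups. It rose by 0.72 in HGPS (SE 0.10, adjusted p = 1.93e-05) and fell by 1.43 at 24 mo (SE 0.10, adjusted p = 2.13e-08) on the log2 scale. Col10a1, a collagen of hypertrophic cartilage, rose from 0.286 to 1.29 CPM in HGPS (2.12, SE 0.33, 5.62e-05), and Chad, a cartilage matrix protein, from 0.219 to 0.649 CPM (1.52, SE 0.29, 0.000373), both on few counts. The Chad call was lost with DESeq2, which called 2 of the 7, with all genes of at least 1 count tested, with the replicate block and without 2-mo WT replicate 2, 3 or 6. Pth1r, the parathyroid hormone receptor, rose at 24 mo (0.65, SE 0.11, 0.000673), a call lost in 14 of 27 alternatives. Against 24-mo WT, HGPS was higher in Sparc (2.15, 3.1e-11) and Col10a1 (1.44, 0.000867, lost in 18 of 26 alternatives) and lower in Pth1r (-0.88, 4.42e-06) and in Ihh, the hedgehog ligand of growth cartilage (-1.38, 7.09e-05). Osteocalcin (Bglap, Bglap2 and Bglap3, near-identical copies among which reads can be misassigned) was too low to be tested.

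BMP signalling had 3 of 6 past the cut-offs in HGPS. Bmper, a secreted BMP modulator, rose from 5.80 to 13.1 CPM (log2 fold change 1.17, SE 0.23, adjusted p = 0.000445), and the antagonist Chrd fell by 0.68 (2.66e-05). Smad6, an intracellular inhibitor of BMP signalling, fell by 0.88 (0.000906), a call lost in 21 of 27 alternatives, and the Bmper call was lost with the replicate block, with those 2 groups fitted alone and without HGPS replicate 1 or 2-mo WT replicate 2, 4, 5 or 6. Against 24-mo WT, HGPS was higher in Bmper (1.38, 7.78e-05) and lower in Smad6 (-1.30, 1.54e-05). Lrp4, the receptor that anchors sclerostin, fell in HGPS by 0.70 against 2-mo WT (SE 0.12, adjusted p = 0.000131) and by 1.10 against 24-mo WT (6.17e-07), in the same libraries in which Sost was lower. The Wnt antagonist Dkk2 differed between HGPS and 24-mo WT, higher in HGPS (1.55, 0.00094), a call lost in 18 of 26 alternatives. Of the osteoclast products, Ctsk (cathepsin K) fell at 24 mo by 0.77 (SE 0.13, adjusted p = 0.000353; lost with the replicate block and without 2-mo WT replicate 2 or 5 or 24-mo WT replicate 2 or 6), and Acp5, the tartrate-resistant phosphatase that acts on osteopontin, rose in HGPS relative to 24-mo WT (1.38, SE 0.26, 0.000256). In HGPS against 2-mo WT none of the 3 tested passed by edgeR (3 with an unadjusted p under 0.05, 2 called by DESeq2, both higher). Acp5 was at 13.0 to 39.2 CPM in HGPS, 6.65 to 18.4 in 2-mo WT and 7.59 to 15.0 in 24-mo WT.

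Osteopontin is also a product of macrophages, and markers of macrophages were likewise higher in HGPS than in 2-mo WT. The summed level of 12 macrophage markers was 949 to 1547 CPM in HGPS and 513 to 794 in 2-mo WT. By edgeR 7 of the 12 passed higher and 0 lower (11 and 0 by DESeq2). Of all genes 5.27% passed higher and 4.23% lower in that comparison by edgeR. In 24-mo WT the sum was 453 to 923 CPM, which overlaps the 2-mo WT range, and in that comparison, in which Spp1 rose, 0 of the 12 passed by edgeR, 0 by DESeq2 and 0 had an unadjusted p under 0.05. The 24-mo WT mice with the most Spp1, replicates 2 and 3, also had the highest macrophage sums of their group, 923 and 846 CPM. The other mice did not keep that order: replicate 6, with a sum of 743 CPM, had 2.77 CPM of Spp1. Replicate 5, with a sum of 552 CPM, had 4.94 CPM of Spp1. Within HGPS, replicates 3 and 6 had the highest sums (1357 and 1547 CPM) and the most Spp1 (43.8 and 34.2 CPM). HGPS replicate 2 had the lowest sum, 949 CPM, with 23.7 CPM of Spp1. That was above HGPS replicates 4 and 5 (14.8 and 15.9 CPM of Spp1, with sums of 1259 and 1268 CPM). Smooth muscle markers summed to 19696 to 27447 CPM in HGPS and 29525 to 38055 in 2-mo WT, with 3 of 8 lower. Brown fat markers reached 460 to 1704 CPM in HGPS against 108 to 601 in 2-mo WT, and white fat markers 919 to 2713 against 205 to 1126, with overlapping ranges. Of the 8 markers of each, 2 brown fat and 1 white fat markers passed, all higher (3 and 6 by DESeq2). HGPS replicates 4 and 5 had the lowest fat sums of their group (460 and 509 CPM for brown, 919 and 933 for white). They were also the lowest HGPS mice in Phospho1 (9.31 and 13.5 CPM), Ppa1 (50.1 and 60.8), Acp5 (13.0 and 17.8) and Spp1 (14.8 and 15.9). Slc20a1 did not follow this order (26.0 and 25.9). The part of macrophages, smooth muscle and fat in the differences of the 10 genes and of the companion genes was not tested.

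Markers of skeletal cells were present at low to moderate levels. Osteoblast and osteocyte markers summed to 10.2 to 14.5 CPM in HGPS, 14.6 to 22.8 in 2-mo WT and 16.2 to 28.5 in 24-mo WT, only 2 of 8 had enough counts to be tested, and Mepe was at 0 in every mouse, Bglap2 in all 2-mo WT and Bglap in all 24-mo WT mice. Most of that sum was Phex. Osteoclast markers summed to 61.9 to 102 CPM in HGPS, 65.6 to 89.0 in 2-mo WT and 46.2 to 62.3 in 24-mo WT, mostly from Ctsk and Acp5, with 3 of 8 tested and the calcitonin receptor Calcr at 0 throughout. The sum of 8 cartilage markers was 49.5 to 109 CPM in 24-mo WT, 38.6 to 48.4 in 2-mo WT and 39.1 to 79.3 in HGPS. Most of it was Acan (aggrecan), at 53.6 ± 23.4, 34.8 ± 4.50 and 54.5 ± 14.7 CPM (SD, n = 6 each), which passed in no comparison. Of the 4 cartilage markers tested 1 passed at 24 mo and 1 in HGPS, the same gene with opposite signs, while the median log2 fold change of the 4 was 0.70 and 0.28. This gene, Hapln1, which encodes link protein, rose at 24 mo from a mean of 6.63 to 19.8 CPM (log2 fold change 1.58, SE 0.14, edgeR adjusted p = 2.59e-07), in the comparison in which Ibsp rose, and fell by 0.88 in HGPS (9.44e-05). Whether the aged vessels carried cartilage-like or bone-like cells was not tested.

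**Figure D5:**
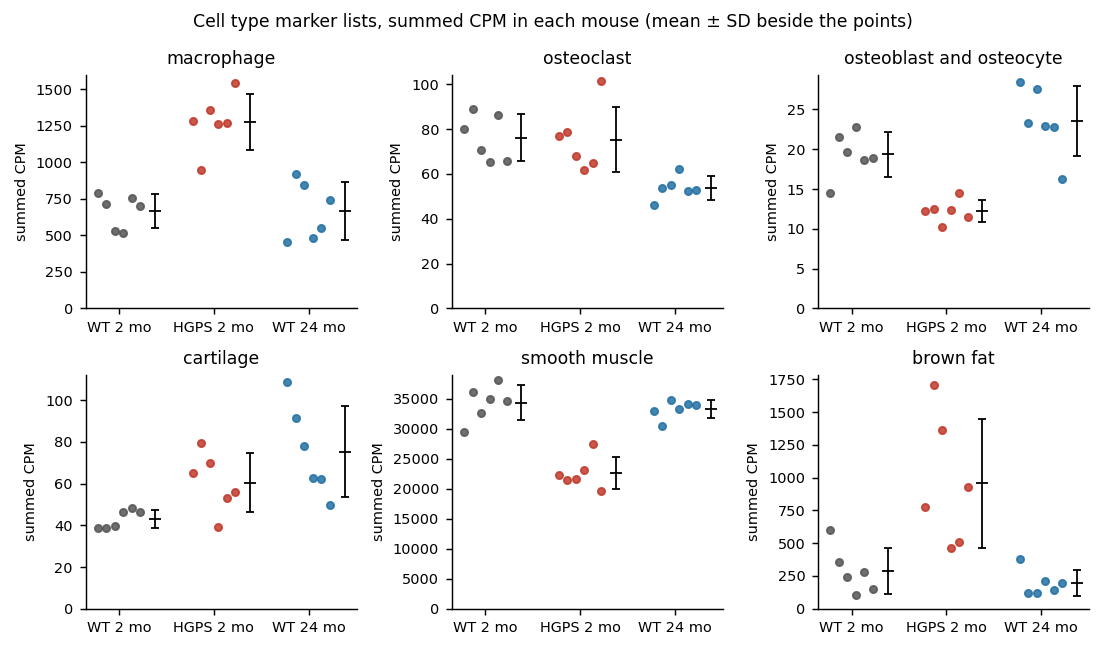
Summed CPM of 6 marker lists in each mouse, with mean ± SD beside the 6 points of each group and every axis from 0. Macrophage sums are 949 to 1547 CPM in HGPS and overlap between the WT ages, smooth muscle sums are lower in HGPS, and cartilage sums are higher in 24-mo than in 2-mo WT.

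The genes whose log2 CPM followed Spp1 most closely over the 18 mice were Aen (r = 0.95, rho = 0.95), Prnp (0.95, 0.93), Exoc4 (0.93, 0.92), Got1 (0.93, 0.93) and Col8a1 (0.92, 0.92), of the 10707 genes whose mean count reached 100. After the group means were removed, the closest were Gm12481 (0.83, 0.91), Nme1 (0.82, 0.81), Rab31 (0.81, 0.79), Rell1 (0.78, 0.75) and Cfap298 (0.77, 0.70). For Tnfrsf11b they were Tnnt2 (0.94, 0.85), Cd109 (0.92, 0.87), Flt1 (0.91, 0.87), Fth1 (0.90, 0.81) and Ahcyl2 (0.89, 0.84) by level, and Tnnt2 (0.80, 0.81), Etv5 (0.78, 0.82), Ccn3 (0.76, 0.78), Cpeb1 (0.73, 0.73) and Cd109 (0.73, 0.65) by deviation. No gene was shared between the lists of Spp1 and Tnfrsf11b. These correlations describe the points, which share libraries and group differences, and carry no p-value.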

How the data were processed

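Paired-end reads of stranded, ribosomal RNA-depleted libraries were assigned by the authors to GENCODE M23 transcripts (GRCm38.p6) with salmon, and transcripts were combined into genes with tximport. The table holds deposited estimated counts in whole numbers, not normalized. The submitters' processing notes also list Bowtie 0.12.2, with no role given. Every column was matched to a sample. Symbols, coordinates and exon lengths (union of exons) came from GENCODE M21, in which 54107 of 54281 identifiers were found, and promoters from RefSeq.

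A gene was tested if 6 or more mice had 10 or more counts, which 15210 genes met. Library sizes were scaled by TMM, and edgeR 4.0.16 in R 4.3.3 fitted the 3 groups together by quasi-likelihood (15 residual degrees of freedom), with Benjamini-Hochberg adjustment over the genes tested. Cut-offs were those of the study, 1.5-fold and an adjusted p under 0.001. The study itself used DESeq2. Each standard error was obtained as the absolute log2 fold change over the root of F. Log2 CPM used a prior count of 2. Totals of 12413229 to 30844775 counts leave genes near 1 CPM with few reads. Each p-value weighs a difference between groups against the spread between mice, which was estimated over the 3 groups together.

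The 10 genes, the companion lists and the marker lists were chosen with earlier results of these data known. Named are all 10, up to 4 passing genes a companion list and comparison by smallest adjusted p (Phospho1, the fifth of its list in HGPS against 2-mo WT, is named because it was within that limit against 24-mo WT), and the 5 genes most like Spp1 and Tnfrsf11b. Other genes that missed the cut-offs are given for their role. Alternatives were DESeq2 1.42.0, other normalizations and filters, a replicate block, the 2 groups alone, thinned counts, other cut-offs, each mouse left out and, added after seeing the data, another gene length. The steps were tested on simulated counts. Equal replicate numbers in different groups are different mice. Their deviations correlated at -0.34 to 0.30, with 4 of 18 pairs over 0.1, so no pairing was used. No libraries of a group agreed within counting noise (chi-square over its degrees of freedom between 8.07 and 95.0 in 45 pairs).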

Additional observations from a re-analysis of the deposited data

Results flagged for a closer look

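Each of the 10 genes was checked in each group of 6 mice for a value that stands apart. This means that its gap to the nearest other mouse, divided by the range of the group, was above Dixon's critical value. Gap and range were taken on log2 CPM, and the levels below are given in CPM. Of 30 such checks 3 passed, and chance alone gives about 1 in 20. Enpp1 was 78.8 CPM in 2-mo WT replicate 2 (gap over range 0.686), above the other 2-mo WT mice and within the HGPS range. Sost was 909 CPM in 2-mo WT replicate 4 (0.731), the shallowest library at 12413229 counts. Slc20a1 was 30.9 CPM in HGPS replicate 3 (0.653), the mouse with the highest Spp1.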

How the results depend on the processing

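Log2 fold changes of the 10 genes that had passed the cut-offs kept their direction in every alternative, while some near 0 that had not passed (Alpl between the WT ages, Runx2 and Tnfrsf11b between HGPS and 24-mo WT) changed sign in at least 1, and Spp1, Tnfrsf11b and Ibsp stayed past them between the WT ages wherever they were tested. Asking for 10 counts in all mice dropped Spp1, Ibsp and Runx2 from testing. The other cut-offs below were applied to the counts of all genes and of companion genes, not to the 10 genes. With DESeq2, 481 genes in place of 304 passed between the WT ages. With an adjusted p under 0.05 and no fold limit, 6567, 1775 and 7201 genes passed in HGPS against 2-mo WT, 24-mo against 2-mo WT and HGPS against 24-mo WT, and 35, 15 and 39 of the 65 companion genes. When genes were tested against a 1.5-fold change, 143, 74 and 351 genes and 0, 1 and 2 companion genes passed. In the first of these, with 0, 17 companion genes had an unadjusted p under 0.05, and DESeq2's test against no change called 21. The 5 companion genes between the WT ages became 2 when those groups were fitted alone and 2 to 5 with 1 mouse left out. With the replicate number as a block they became 3, and the 10 genes lost 1 call, Slc20a1 in HGPS against 2-mo WT. Mice share only a number, so the block is no pairing. The cause of these shifts was not tested. With the longest protein-coding transcript as length, added after seeing the data, 18 of the 30 mean levels per kilobase moved by more than 1 SD, which follows from the shorter lengths. Depth limits Spp1, Ibsp and Runx2 in young mice most.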

Other observations

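Other marker lists gave the following values. Endothelial markers summed to 966 to 1304 CPM in HGPS, 611 to 1472 in 2-mo WT and 523 to 1494 in 24-mo WT, and none of 8 passed by edgeR or DESeq2 in any comparison, with 1 at an unadjusted p under 0.05 in HGPS against 2-mo WT. Fibroblast markers summed to 5949 to 10066 CPM in HGPS, 8598 to 11162 in 2-mo WT and 5627 to 8038 in 24-mo WT. Of the 8, 0 passed higher and 1 lower in HGPS against 2-mo WT (median log2 fold change -0.29), 0 higher and 2 lower at 24 mo (-0.47), and 1 higher and 2 lower in HGPS against 24-mo WT (0.25). Nerve markers summed to 170 to 206 CPM in HGPS, 192 to 249 in 2-mo WT and 153 to 193 in 24-mo WT. Skeletal muscle markers were at most 9.65 CPM in sum in any mouse.

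Within a mouse, the ratio of Tnfrsf11b to Sost per kilobase, 2 secreted antagonists of bone biology, was 0.0759 to 0.121 in HGPS, 0.0344 to 0.0568 in 24-mo WT and 0.0155 to 0.0264 in 2-mo WT, with no overlap between groups. This ratio was chosen with the levels of both genes known and has no test.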
